A study of Mus musculus with 10 samples.

Results

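The 10 genes described here encode the core of the NF-kB pathway: the transcription factor subunits Nfkb1, Nfkb2, Rela, Relb and Rel, the inhibitors Nfkbia and Nfkbib, and the IkB kinase (IKK) genes Chuk, Ikbkb and Ikbkg. They were chosen by symbol from the 57186 Ensembl genes of the deposited count table. Each symbol matched 1 row, and all 10 rows held counts, as did 22756 genes in all. The study measured polyadenylated RNA in neuroretinas, the neural tissue of the eye that senses light, of female C57BL6/JRj mice killed 14 days after they were injected in the vitreous. The treated group (CNP, 5 libraries) received 1 µL of a 1 mg/mL solution of graphitic carbon nitride nanoparticles, labelled hg-C3N4, diluted in phosphate-buffered saline. The comparison group (PBS, 5 libraries) received phosphate-buffered saline. Both groups are of the same strain and sex, and both were injected. An effect of the needle, or a difference in it between the groups, was not tested. The labels give no age and no uninjected group, and the design text counts mice for CNP but eyes for PBS. The labels therefore leave unstated if libraries are from separate animals. The p-values set group differences against the spread between these libraries, which may not be the spread between animals. Libraries are named by group and the number in their label.

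NF-kB dimers are built from 5 related subunits that share a DNA-binding Rel homology domain. In resting cells the dimers are held in the cytoplasm by IkB proteins. Cytokine, pathogen or stress signals activate the IKK complex, in which Chuk (IKKα) and Ikbkb (IKKβ) are the catalytic subunits and Ikbkg (NEMO) the regulatory one. IKK phosphorylates the IkB proteins, which are degraded, and the released dimers switch on inflammatory and survival genes. Nfkbia, which encodes IkBα, is itself such a target, and its resynthesis ends the response. In the alternative branch of the pathway, Map3k14 activates Chuk, which triggers processing of the Nfkb2 product p100, the partner of Relb. In the retina the pathway is best known in glia and microglia after injury. Its activity is set largely by protein degradation and nuclear entry, neither of which RNA levels measure.

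The promoters of the most abundant inhibitor, the most abundant subunit and a subunit of the alternative branch are shown because they differ in the kappaB consensus, the DNA element that NF-kB dimers bind. Each runs from 250 bases before to 50 bases after the annotated start and is given 5′ to 3′ on the gene's strand. The sequences are from RefSeq on build GRCm38.p6, and capitals mark matches to the kappaB consensus on either strand.
Nfkbia, minus strand of chr12:55492598-55492897: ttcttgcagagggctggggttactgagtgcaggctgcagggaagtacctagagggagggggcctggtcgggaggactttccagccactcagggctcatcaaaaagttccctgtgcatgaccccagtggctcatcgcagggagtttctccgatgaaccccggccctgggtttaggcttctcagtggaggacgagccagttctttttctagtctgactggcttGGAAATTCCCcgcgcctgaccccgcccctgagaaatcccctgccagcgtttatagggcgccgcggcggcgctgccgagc
Nfkb2, first of 3 annotated starts, plus strand of chr19:46304487-46304786: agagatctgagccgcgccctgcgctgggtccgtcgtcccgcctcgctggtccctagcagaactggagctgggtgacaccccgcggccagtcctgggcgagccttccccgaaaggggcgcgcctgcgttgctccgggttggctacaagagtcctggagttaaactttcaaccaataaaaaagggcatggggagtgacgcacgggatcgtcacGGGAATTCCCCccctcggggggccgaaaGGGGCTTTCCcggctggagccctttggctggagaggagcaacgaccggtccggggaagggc
Rela, plus strand of chr19:5637291-5637590: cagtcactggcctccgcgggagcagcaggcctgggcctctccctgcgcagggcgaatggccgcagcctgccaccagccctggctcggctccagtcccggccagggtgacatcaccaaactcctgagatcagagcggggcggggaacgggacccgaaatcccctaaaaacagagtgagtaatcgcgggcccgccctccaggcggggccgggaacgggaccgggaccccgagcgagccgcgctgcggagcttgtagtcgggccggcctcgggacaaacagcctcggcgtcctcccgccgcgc

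The Nfkbia window held 1 match, GGAAATTCCC, which began 29 bases before the start. The first Nfkb2 window held 3 matches, of which GGGAATTCCC and GGAATTCCCC overlapped, beginning 39 and 38 bases before the start, and GGGGCTTTCC began 11 bases before it. The Rela window held 0. RefSeq promoters were found for 7 of the 10 members (12 windows), and 3 members (Nfkb2, Rel and Nfkbia) had a match in 5 windows. Among 32851 promoter windows of the same length, 4.51% held the consensus, and 0.554% held 2 or more matches, overlapping ones included. The other 2 Nfkb2 windows overlap and share the match GGGACTTTCC. A match is a description of the letters and does not show binding.

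The retina expressed the 2 inhibitors at far higher levels per length than the subunits or the kinases (plot of level per length). Levels are in CPM, the usual unit for counts divided by their library's total, and for a comparison between genes they were divided by the summed length of a gene's annotated exons. Over the 10 libraries Nfkbia averaged 45.6 ± 6.55 CPM per kb and Nfkbib, which encodes IkBβ, 18.3 ± 2.69 CPM per kb. Rela, which encodes the transactivating subunit p65, had 4.99 ± 1.21 CPM per kb, and Ikbkg 2.31 ± 0.378 CPM per kb (SD, n = 10 for each). These 4 neighbours in the order did not overlap in range, and each pair kept its order in 10 of 10 libraries. Then came Relb at 1.25 ± 0.54, Chuk at 1.04 ± 0.25, Ikbkb at 0.785 ± 0.064 and Nfkb2 at 0.649 ± 0.289 CPM per kb. Ikbkg exceeded Relb in 9 of 10 libraries, and neighbours from Relb to Nfkb2 overlapped in range, Relb exceeding Chuk in 5 of 10. Nfkb1, which encodes p105 and p50, had 0.123 ± 0.0617 CPM per kb, below Nfkb2 in 10 of 10 libraries. Rel, the subunit c-Rel typical of lymphoid cells, had 0.0914 ± 0.0477 CPM per kb, which overlapped with Nfkb1. The order was the same in the CNP and the PBS means.

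**Figure D1:**
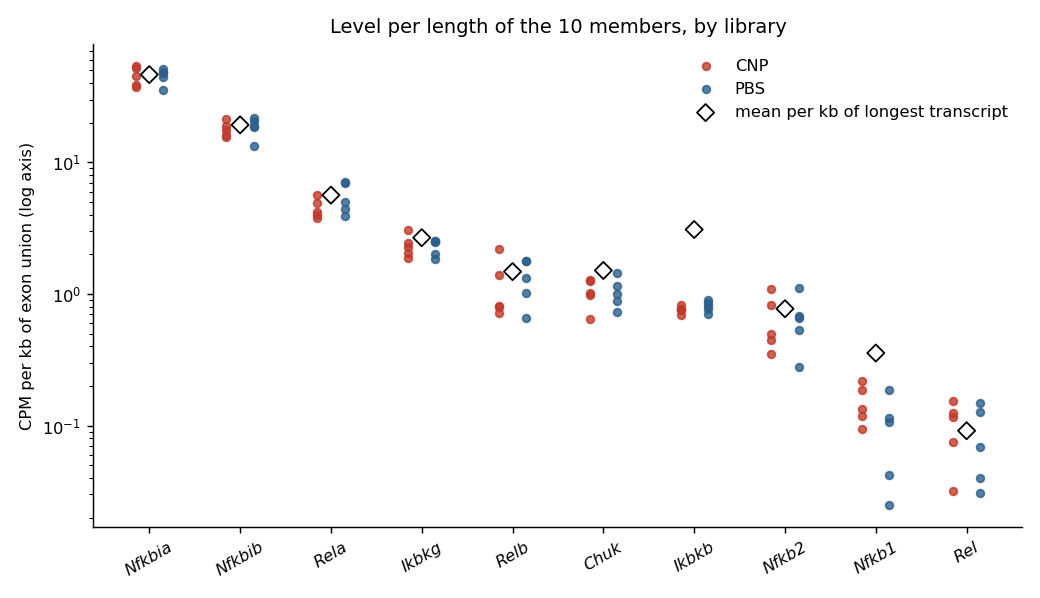
Level of each member in CPM per kb of exon union on a log axis, with CNP libraries to the left of PBS libraries and open diamonds for the mean over the 10 libraries per kb of the longest transcript. Nfkbia, Nfkbib and Rela stand apart without overlap, and the diamond of Ikbkb lies well above its points.

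The places of Ikbkb, Ikbkg and Relb depend on the length used. The annotated exons of Ikbkb sum to 19078 bases over 14 transcripts, while its longest transcript has 4845 bases. Per kb of the longest transcript Ikbkb averaged 3.09 ± 0.252 and Ikbkg 2.68 ± 0.438 CPM per kb (SD, n = 10), so that they changed places with overlapping ranges. Relb went from place 5 to place 7 on this scale and on undivided CPM. Nfkb1 had 0.356 ± 0.179 CPM per kb of its longest transcript, with a range that overlapped that of Nfkb2, which exceeded it in 9 of 10 libraries there and in 8 of 10 on undivided CPM. Nfkbia, Nfkbib and Rela kept the first 3 places on both length scales. On undivided CPM Nfkbia (73.4) and Nfkbib (39.7) also came first, with Ikbkg (18.8) before Rela (15.3) and overlapping ranges for these last 2. The labels describe primers with barcodes and unique molecular identifiers but do not say which part of a transcript the reads cover, so the scale that suits these counts is not known.

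Among the 5 subunits, Rela made up 69.1% ± 5.09 of the summed CPM per kb in CNP and 72% ± 5.64 in PBS (SD, n = 5 each). Relb made up 17.3% ± 6.23 in CNP and 17% ± 4.22 in PBS, and Nfkb2 9.76% ± 4.02 in CNP and 8.82% ± 4.71 in PBS. Rela was therefore the main subunit transcript of each library, from 62.8% in CNP 4 to 78.9% in PBS 14. The ratio of Nfkbia to Rela, both per kb, was 10.1 ± 0.791 in CNP and 8.78 ± 2.34 in PBS. It ran from 9.23 to 11 in CNP and from 6.41 to 12.3 in PBS, so the CNP values lay inside the PBS range. These figures depend on the length used. Per kb of the longest transcript the ratio was 9.1 ± 0.714 in CNP and 7.92 ± 2.11 in PBS. Rela's share was then 66.1% ± 5.18 in CNP and 69.9% ± 5.77 in PBS. Undivided CPM gave a smaller ratio, with Nfkbia at 73.2 and Rela at 13.9 CPM in CNP, against 73.5 and 16.8 CPM in PBS. The shares on undivided CPM were not computed. There Rela averaged 15.3 CPM over the 10 libraries, Relb 4.85, Nfkb2 2.97, Nfkb1 1.48 and Rel 0.682 CPM.

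The study asked how retinal transcripts after nanoparticles compare with those after PBS, and no NF-kB member was called. After a filter on low counts 8 of the 10 members could be tested with edgeR's quasi-likelihood test among 11499 genes, and Nfkb1 and Rel could not. Of the 8, 0 passed an adjusted p of 0.05 (Benjamini-Hochberg over all genes), against 0% of all genes tested. At an unadjusted p under 0.05 there were also 0 members, against 1.19% of all genes (137 by edgeR, 86 by DESeq2 and 142 by limma-voom). The adjusted p was 0.9997 for each of the 8. Fold changes were negative for 6 and positive for 2, with a median log2 fold change of -0.028 (CNP over PBS), against 51.2% negative and a median of -0.0036 over all genes. The CPM of the groups overlapped for all 10 members, where 0.278% of tested genes did not overlap. An exact permutation test of mean CPM over every assignment of the libraries to groups of 5, which needs no filter, gave two-sided p from 0.159 to 0.984 over the 10 members (1.84% of the 22756 genes with a count were under 0.05). After adjustment over all those genes p was 1 for each member, and the smallest p the design allows is 0.00794. Adjusted over 22756 genes, that smallest p passes 0.05 only if very many genes share it. The adjusted permutation p therefore says little about the members.

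**Figure D2:**
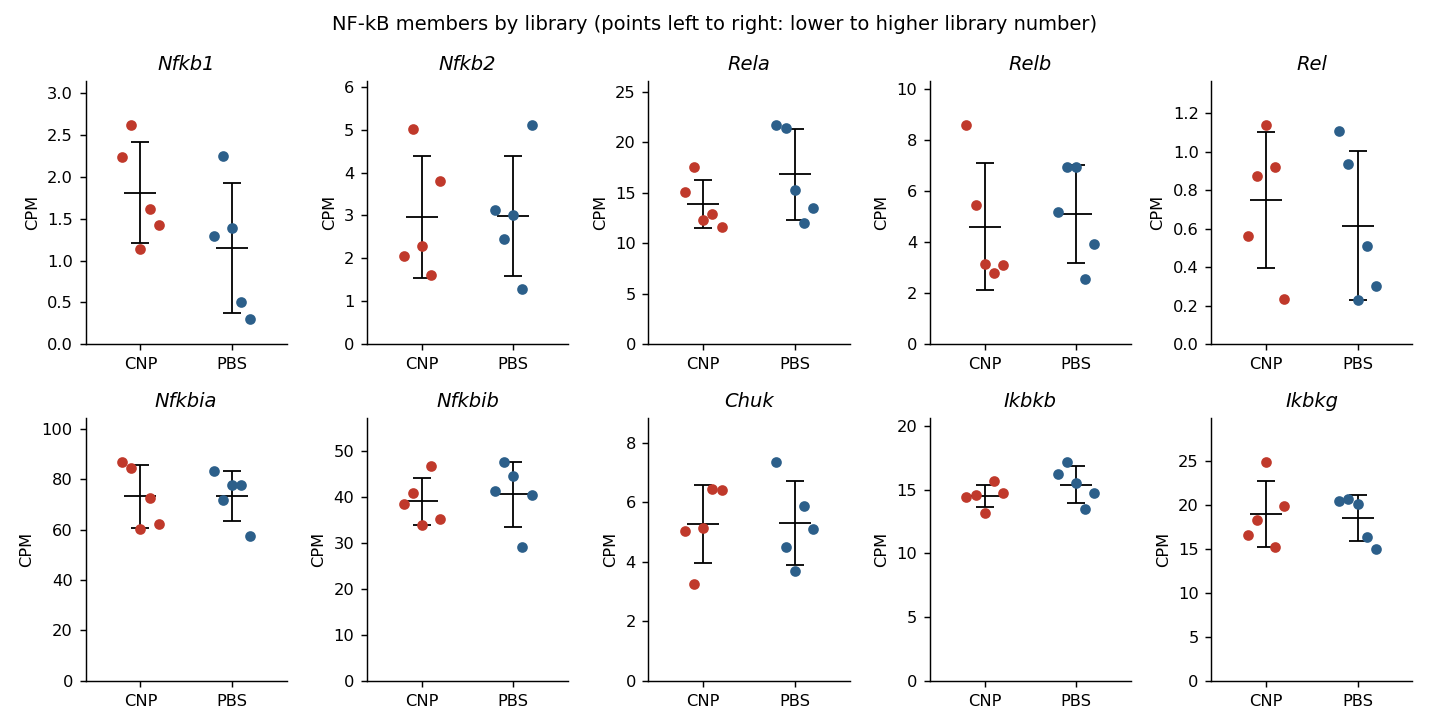
CPM of each member in every library, CNP left and PBS right, with the mean and SD of each group in black (n = 5). The groups overlap for all 10 members, and Nfkb1, Nfkb2, Relb and Rel spread widely relative to their means.

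The 2 inhibitors had the most counts of the 10 members. Nfkbia had 87, 84.5, 60.1, 72.4 and 62.2 CPM in CNP 4, 8, 12, 16 and 20, against 83.1, 71.8, 77.9, 77.6 and 57.4 CPM in PBS 2, 6, 10, 14 and 18. The groups covered nearly the same range, with PBS 18 lowest and CNP 4 highest. Its means were 73.2 ± 12.4 CPM in CNP and 73.5 ± 9.88 CPM in PBS (SD, n = 5 each), and its log2 fold change was -0.012 (SE 0.12, 95% interval -0.28 to 0.25). In linear terms the interval runs from 0.826-fold to 1.19-fold. Nfkbia rests on 191 to 466 counts a library.

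Nfkbib had 38.5, 40.8, 33.8, 46.6 and 35.1 CPM in CNP 4, 8, 12, 16 and 20, against 41.3, 47.6, 44.4, 29.1 and 40.3 CPM in PBS 2, 6, 10, 14 and 18. PBS 14 was the lowest library and PBS 6 the highest, so that the CNP values lay between PBS values. Its log2 fold change was -0.044 (SE 0.11, 95% interval -0.29 to 0.20). Annotated exons of Nfkbib share 42 bases with Sirt2 and 314 with Ccer2 on the opposite strand, and no source used here says whether counting used the strand. Sirt2 held 2928 counts over the 10 libraries, Ccer2 19 and Nfkbib 1779.

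Rela had the lowest unadjusted p of the 8 (0.0938, edgeR; 3.5% of all genes were under 0.1), which does not pass. It had 15.1, 17.5, 12.3, 12.9 and 11.6 CPM in CNP 4, 8, 12, 16 and 20, against 21.7, 21.4, 15.3, 12 and 13.5 CPM in PBS 2, 6, 10, 14 and 18. PBS 2 and PBS 6 were the high libraries, and the other 3 PBS libraries lay among the CNP values. Its means were 13.9 ± 2.39 CPM in CNP and 16.8 ± 4.51 CPM in PBS (SD, n = 5 each), with a log2 fold change of -0.27 (SE 0.15, 95% interval -0.58 to 0.05). The exact permutation p of the difference in means was 0.246.

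Relb and Nfkb2, the subunits of the alternative branch, had lower mean CPM than Rela, and Nfkb1 and Rel had lower mean CPM still. Relb had 8.59, 5.46, 3.15, 2.77 and 3.09 CPM in CNP 4, 8, 12, 16 and 20, against 5.16, 6.93, 6.94, 2.55 and 3.91 CPM in PBS 2, 6, 10, 14 and 18. CNP 4 was the highest library and PBS 14 the lowest, and within each group the libraries with numbers up to 10 were above the rest. Its log2 fold change was -0.11 (SE 0.32, 95% interval -0.80 to 0.57). Nfkb2 had 2.05, 5.02, 2.29, 1.61 and 3.8 CPM in CNP 4, 8, 12, 16 and 20, against 3.13, 2.44, 3.01, 1.28 and 5.11 CPM in PBS 2, 6, 10, 14 and 18. CNP 8 and PBS 18 were the high libraries, 1 in each group, and the log2 fold change was 0.021 (SE 0.36, 95% interval -0.75 to 0.79). Nfkb2 rests on 5 to 23 counts a library, and its annotated exons share 299 bases on the opposite strand with Psd, which held 4599 counts against 130 for Nfkb2. Its level is uncertain for that reason.

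Nfkb1 and Rel fell below the filter. Nfkb1 had 12, 12, 4, 7 and 6 counts in CNP 4, 8, 12, 16 and 20, against 7, 12, 6, 2 and 1 counts in PBS 2, 6, 10, 14 and 18. The lowest counts were in PBS 14 and PBS 18, and PBS 6 matched the highest CNP libraries. Its means were 1.81 ± 0.606 CPM in CNP and 1.15 ± 0.777 CPM in PBS (SD, n = 5 each; exact permutation p = 0.159). Fitted without the filter, it had a log2 fold change of 0.60 (SE 0.41, 95% interval -0.25 to 1.45), with an edgeR adjusted p of 0.93. Rel had 1 to 6 counts a library, 16 in CNP and 15 in PBS in all. At a floor of 3 counts, 0.553 to 0.901 CPM depending on the library, Rel lay near the limit of this depth. Fitted without the filter, its 95% interval ran from 0.512-fold to 2.45-fold, so changes within that span are not excluded.

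Of the 10 members Ikbkb varied least between libraries. It had 14.4, 14.6, 13.2, 15.7 and 14.7 CPM in CNP 4, 8, 12, 16 and 20, against 16.2, 17.2, 15.5, 13.5 and 14.7 CPM in PBS 2, 6, 10, 14 and 18. PBS 2 and PBS 6 lay above the CNP libraries, and CNP 12 was the lowest of all. Its coefficient of variation over the 10 libraries was 8.15%, below the 12.2% that counting error alone gives at its mean count, and its log2 fold change was -0.08 (SE 0.11, 95% interval -0.32 to 0.16). Chuk had 5.04, 3.27, 5.15, 6.46 and 6.41 CPM in CNP 4, 8, 12, 16 and 20, against 7.37, 4.5, 3.7, 5.87 and 5.11 CPM in PBS 2, 6, 10, 14 and 18. PBS 2 was highest and CNP 8 lowest, and the log2 fold change was -0.0087 (SE 0.26, 95% interval -0.57 to 0.55).

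Ikbkg had 16.6, 18.3, 24.9, 15.2 and 19.9 CPM in CNP 4, 8, 12, 16 and 20, against 20.4, 20.6, 20.1, 16.3 and 15 CPM in PBS 2, 6, 10, 14 and 18. CNP 12 stood above the other 9 libraries. Its log2 fold change was 0.04 (SE 0.15, 95% interval -0.28 to 0.36). Ikbkg shares 418 bases of annotated exon with G6pdx on the opposite strand, which held 2723 counts against 832 for Ikbkg, so reads of the pair may be mixed if strand was not used.

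The 95% intervals lay within 2-fold in either direction for 8 of the 8 tested members, against 94.2% of all genes. They lay within 1.5-fold for 6 of the 8, all but Nfkb2 and Relb, against 65.3% of all genes (plot of fold changes). A p that misses the threshold does not show equal levels, and smaller changes than these intervals span are not excluded. The measurement is of whole neuroretina, where fewer cells of a type and less RNA per cell cannot be told apart.

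**Figure D3:**
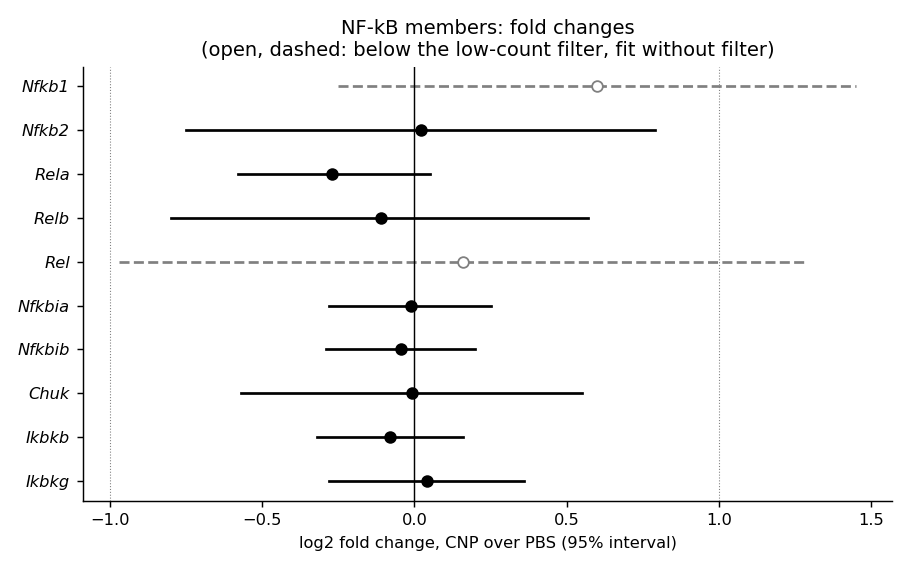
Log2 fold change of each member, CNP over PBS, with its 95% interval, and dotted lines at 2-fold. Filled points are the 8 tested members, whose intervals cross 0, and open points are Nfkb1 and Rel, fitted without the low-count filter.

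The rest of the pathway was read from 6 lists of 84 genes, of which 72 had a count and 39 could be tested. Of the 39, 0 passed the adjusted threshold and 0 had an unadjusted p under 0.05, against 1.19% of all genes. Their fold changes were positive for 18 and negative for 21, with a median log2 fold change of -0.027.

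Of 11 ligand genes 6 had counts and 5 had 0 counts in the 10 libraries. The 5 were Tnf, Il1b, Tnfsf11, Tnfsf14 and Cd40lg, which over the pooled counts allows up to 0.0677 CPM each. The 2 that could be tested were Tnfsf12, the cytokine TWEAK, at 353 ± 29.5 CPM in CNP and 345 ± 31.7 CPM in PBS, and Il18 at 10.2 ± 2.56 CPM in CNP and 9.97 ± 1.87 CPM in PBS (SD, n = 5 each). Their log2 fold changes were 0.021 and 0.06. Tnfsf12 shares 731 exon bases with the read-through gene Tnfsfm13, which held 77 counts. Tnfsf13b, next by mean level, had 18 counts in CNP and 9 in PBS.

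Of 16 receptor genes 13 had counts and 4 could be tested. The TWEAK receptor Tnfrsf12a had 15.8 ± 2.03 CPM in CNP and 15.7 ± 1.69 CPM in PBS (log2 fold change 0.0056). The interleukin 1 receptor accessory chain Il1rap had 5.63 ± 1.69 CPM in CNP and 6.27 ± 2.64 CPM in PBS (-0.14), and the TNF receptor Tnfrsf1a 4.26 ± 0.965 CPM in CNP and 3.92 ± 2.1 CPM in PBS (0.08; SD, n = 5 each). Thus receptor transcripts for TNF, interleukin 1 and TWEAK were present, while those for Tnf and Il1b themselves were not detected at this depth. The toll-like receptor genes Tlr7 and Tlr9 had 0 counts, as did Il18r1.

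Of 23 adaptors and upstream kinases, all with counts, 16 could be tested, 6 positive and 10 negative, with a median log2 fold change of -0.031. The linear ubiquitin ligase subunits Rbck1 and Sharpin had log2 fold changes of -0.035 and 0.033. Rbck1 averaged 55.8 ± 3.97 CPM in CNP and 57.2 ± 4.82 CPM in PBS, and Sharpin 44.1 ± 2.99 CPM in CNP and 43.3 ± 6.08 CPM in PBS (SD, n = 5 each). The ubiquitin ligase Birc2 had -0.09.

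Of 8 deubiquitinases and other negative regulators 7 could be tested, 2 positive and 5 negative, with a median of -0.037. Tnfaip3 encodes A20, which shuts off signalling to IKK and is a textbook NF-kB target. It averaged 86.9 ± 10.1 CPM in CNP and 89.1 ± 2.81 CPM in PBS (SD, n = 5 each), with a log2 fold change of -0.037 (95% interval -0.31 to 0.23). Cyld, a deubiquitinase, had -0.045, and Commd1, which promotes turnover of nuclear RelA, -0.044. Of 4 other IkB genes, Nfkbiz could be tested, at 3.3 ± 1 CPM in CNP and 2.56 ± 0.921 CPM in PBS (log2 fold change 0.37, 95% interval -0.27 to 1.01). Nfkbie had 43 counts in CNP and 42 in PBS, and Bcl3 had 19 in CNP and 28 in PBS.

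Of 22 target genes 18 had counts and 9 could be tested, 5 positive and 4 negative, with a median of 0.019 and a range from -0.42 to 0.33 (plot of pathway lists). The mitochondrial superoxide dismutase Sod2 averaged 289 ± 12.2 CPM in CNP and 281 ± 14.1 CPM in PBS (log2 fold change 0.035, 95% interval -0.16 to 0.23). The survival gene Bcl2l1 had 0.019 and the early response gene Ier3 0.037. The inflammatory targets Sele, Cxcl1, Cxcl2 and Il6 had 0 counts in the 10 libraries. Others were detected, among them the adhesion molecule Vcam1 with 261 counts in CNP and 248 in PBS, and the chemokines Ccl5 with 18 in CNP and 30 in PBS and Ccl2 with 15 in CNP and 12 in PBS.

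**Figure D4:**
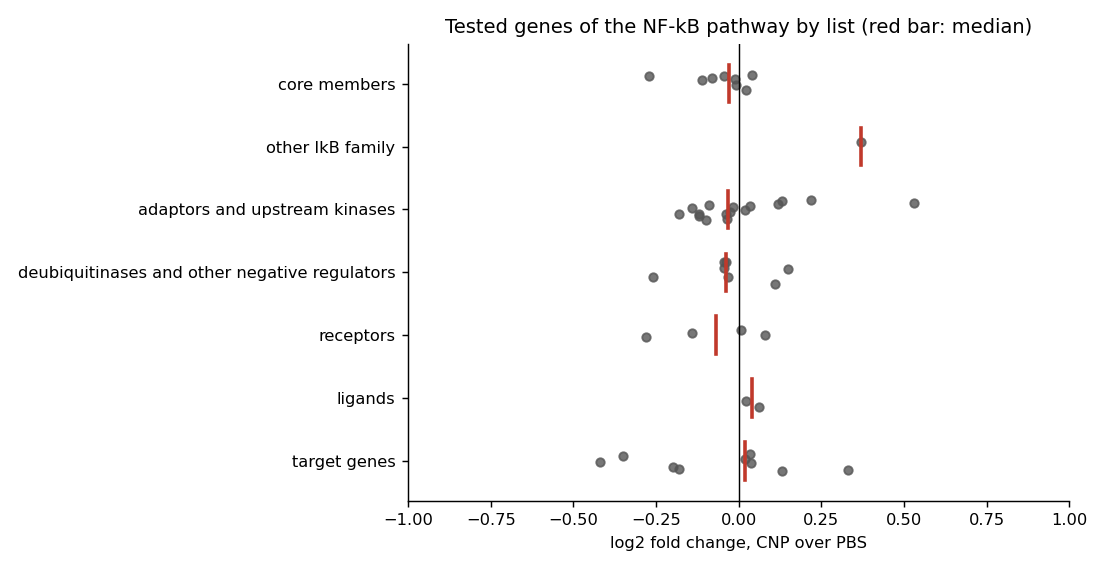
Log2 fold change (CNP over PBS) of each tested gene of the pathway by list, with the list's median as a red bar. The medians of the core members and of the 5 lists with more than 1 tested gene lie between -0.07 and 0.038, and the list of other IkB genes holds Nfkbiz alone.

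Relb, and on the CPM scale Rela, separated by library number. The labels number the libraries from 2 to 20 and do not say what the number marks. The split at 10 was taken from earlier results of these data and is not a treatment, since the 5 libraries above 10 hold 3 CNP and 2 PBS and the 5 up to 10 hold 2 CNP and 3 PBS. Relb had 2.55 to 3.91 CPM in libraries above 10 and 5.16 to 8.59 CPM in those up to 10, without overlap (plot of members by library number). With treatment in the model its log2 fold change, above 10 over up to 10, was -0.92 (SE 0.23, 95% interval -1.41 to -0.44), with an edgeR adjusted p of 0.0068. Because the split came from these data, this p and interval, and those below for Rela and Chuk, describe the split and do not test it. Relb was the 1 member of 8 called. Of all 11499 genes 31% were called between these sets, and 16.7% were called lower above 10. A call there is therefore not particular to Relb. Rela had 11.6 to 13.5 CPM above 10 and 15.1 to 21.7 CPM up to 10, also without overlap (24.9% of the tested genes did not overlap between these sets), but after TMM scaling (a library scaling that allows for the makeup of the RNA) its log2 fold change was -0.30 (adjusted p = 0.0904, edgeR). Chuk leaned the other way at 0.50 (95% interval 0.02 to 0.99, edgeR adjusted p = 0.106). Total counts were 3328518 to 4337612 above 10 and 4325794 to 5428697 up to 10. The part of depth in these differences was not tested.

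**Figure D5:**
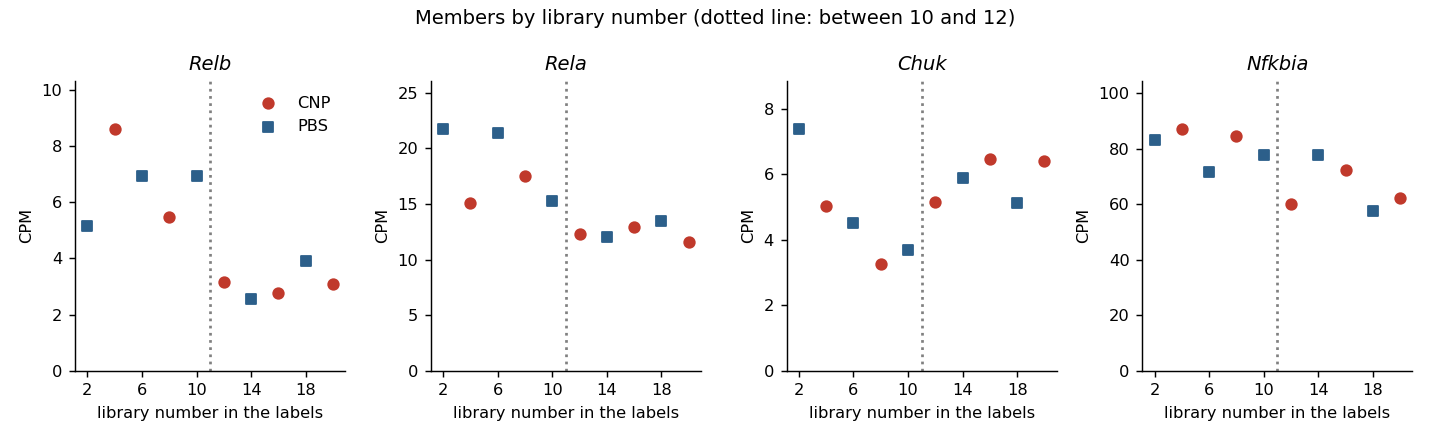
CPM of 4 members against the library number in the labels, with CNP as circles and PBS as squares. Relb and Rela are lower in the 5 libraries to the right of the dotted line than in the 5 to its left, in both groups.

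The treatment differences within these sets are given as a description. The share of all genes that changed sign between the sets was not computed, so whether a change of sign is particular to the members is not known. Nfkbia had a log2 fold change (CNP over PBS) of -0.19 above 10 and 0.18 up to 10, and Relb -0.21 above 10 and 0.21 up to 10. The widest gap was that of Nfkb2, at -0.37 above 10 and 0.31 up to 10, on few counts. Chuk had 0.0051 above 10 and -0.28 up to 10, Ikbkg 0.21 above 10 and -0.19 up to 10, and Nfkbib 0.04 above 10 and -0.13 up to 10. Nfkb1 passed the filter up to 10 alone, with 0.58. Rela was negative in both sets, -0.17 above 10 and -0.23 up to 10, and Ikbkb was as well, -0.08 above 10 and -0.14 up to 10. None of the values within sets passed an adjusted or an unadjusted p of 0.05 by edgeR.

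Total counts ranged from 3328518 to 5428697 a library. Rod markers summed to 47191 to 58083 CPM in CNP and 45033 to 66720 CPM in PBS, and all markers of Müller glia, bipolar and ganglion cells on the lists had counts. Lens markers also had counts, at 266 to 4316 CPM in CNP and 232 to 8982 CPM in PBS, and pigment epithelium markers at 940 to 2219 CPM in CNP and 481 to 1913 CPM in PBS. Of 9 tested lens markers 9 had a negative fold change (median log2 fold change -1.35), and of 5 tested pigment epithelium markers 5 had a positive one (median 0.40), with 0 past the adjusted threshold and 0 at an unadjusted p under 0.05 in either list. The lens markers summed to at most 8982 CPM in a library, so leaving them out of the totals could move fold changes only slightly. With library totals only, doing so moved log2 fold changes (CNP over PBS) little. They were -0.28 for Rela, -0.14 for Relb and -0.0083 for Nfkbia without lens genes, against -0.28, -0.13 and -0.0056 with them. The part of lens and pigment epithelium in the members' values was not tested. Microglial markers, 12 of 12 with counts, summed to 175 to 295 CPM in CNP and 170 to 281 CPM in PBS. The 9 macrophage markers, all with counts, summed to 33.8 to 56.3 CPM in CNP and 19.8 to 30 CPM in PBS, without overlap, and 7 of 7 tested had a positive fold change (48.8% of all genes). Of these 7, 4 had an unadjusted p under 0.05 by edgeR, against 1.19% of all genes, and 0 passed the adjusted threshold. Several of them were put on the list because earlier results of these data showed them, so their direction is not independent evidence, and their part in the members' values was not tested. Other leukocyte markers had 10 counts in CNP and 10 in PBS, with Cd3e, Cd3d, Ms4a1 and Ly6g at 0.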

How the data were processed

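Polyadenylated RNA of 10 neuroretinas was copied with barcoded primers that hold unique molecular identifiers, per the labels' protocols. STAR, STARsolo and build GRCm39 are named in the submitters' processing notes; no source used here gives versions, annotation, strand or collapsing of identifiers. The authors deposited raw whole-number counts per Ensembl gene. Floors cover counting error only. Columns were matched by library name. Symbols came from a table that matched 51880 of 57186 IDs.

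Counts were filtered with filterByExpr (minimum count 10, minimum total 15), scaled by TMM and tested by the two-sided quasi-likelihood test of edgeR 4.0.16 (R 4.3.3), with Benjamini-Hochberg adjustment over 11499 genes. Standard errors and 95% intervals follow from its F statistic and include the spread between libraries. Permutation p-values were adjusted over all genes with a count, not over the members. CPM is on library totals. Lengths and overlaps came from GENCODE M21 (GRCm38), so no coordinates of counts are given. Library pairs within groups differed beyond counting noise (chi-square per degree of freedom 3.99 to 32.6 over 20 pairs), so none was counted as a duplicate. The edgeR fit was tested on simulated counts. These gave every gene the same spread beyond counting error and held no differences by library number, so that feature of the data was not covered.

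The members, lists and alternatives were chosen with earlier results of these data known. Text names the members, the 3 genes of each pathway list with the highest mean CPM and any past the threshold; genes with 0 counts, Vcam1, Ccl5, Ccl2 and single markers were added after their values were seen. Alternatives were DESeq2 1.42.0, limma-voom (limma 3.58.1), other scalings and filters, covariates, single libraries left out and, added after seeing the data, fits within library sets.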

Additional observations from a re-analysis of the deposited data

How the results depend on the processing

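No paired analysis was run, because the labels do not say which libraries, if any, share an animal. The count of genes called and the count of members called stayed at 0 under every alternative run, and the count of members with an exact permutation p under 0.05 stayed at 0. Among the 8 tested members, adjusted p over all alternatives ran from 0.9275 to 1. Directions turned for 6 members, whose log2 fold changes with all libraries lay between -0.11 and 0.04. The share of all genes whose direction turned was not computed. With library number above 10 as a covariate, Rela kept its direction. Its log2 fold change (CNP over PBS) was -0.20 (SE 0.13), against -0.27 (SE 0.15) without the covariate. With that covariate, log2 fold changes (CNP over PBS) were 0.08 for Relb, 0.0041 for Nfkbia and -0.0011 for Ikbkg, and limma-voom gave -0.0025 for Ikbkg. Within libraries above 10 they were -0.37 for Nfkb2, 0.04 for Nfkbib and 0.0051 for Chuk, and within those up to 10 they were 0.21 for Relb, 0.18 for Nfkbia and -0.19 for Ikbkg; the cause was not tested. With single libraries left out, log2 fold changes ran from -0.22 to 0.28 for Nfkb2, -0.47 to 0.017 for Relb, -0.07 to 0.08 for Nfkbia, -0.12 to 0.16 for Chuk and -0.09 to 0.10 for Ikbkg, while Rela (-0.32 to -0.19), Nfkbib (-0.13 to -0.011) and Ikbkb (-0.12 to -0.047) stayed negative. Differences of mean CPM then ran from -0.552 to 0.493 for Nfkb2, -4.34 to 2.98 for Nfkbia, -4.42 to 0.206 for Nfkbib, -0.443 to 0.474 for Chuk and -0.976 to 1.45 for Ikbkg. The depth limits Nfkb1, Rel and Nfkb2 most, at 1 to 23 counts a library.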

Other observations

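Of 11498 other tested genes, the 3 whose log2 CPM was most like that of Nfkbia over the 10 libraries were Mtpap (Pearson r = 0.88, Spearman rho = 0.867), Lpar1 (r = 0.868, rho = 0.903) and Nmi (r = 0.863, rho = 0.818). They are the highest of many values over few libraries, which share depth and library number, so no p is given. The other 7 tested members had r from -0.549 (Nfkb2) to 0.152 (Relb) with Nfkbia.

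The counting error of Nfkbia was 5.5% of its mean a library, while the libraries varied by 14.4%, and the same figures were 21.1% and 43.3% for Relb. For Rel they were 56.8% and 52.2%, so the variation of Rel between libraries was no larger than its counting error.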
